A study of Mus musculus with 2 samples.

Results

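The TSC22 domain family was followed in splenic regulatory T cells (Tregs) of mice with impaired TGF-beta signalling. Its 4 genes, Tsc22d1, Tsc22d2, Tsc22d3 and Tsc22d4, were chosen by name, out of 18193 genes to which the array gives at least 1 probe set of their own. All 15 probe sets that the platform annotation assigns to exactly 1 of these genes are described. Tregs keep immune responses in check and are defined among CD4+ T cells by the transcription factor Foxp3. The cells were sorted from spleens of naive 10-week-old mice on the C57BL/6 background. The DNR group carried a dominant negative TGF-beta receptor II, and the WT group was wild type. The labels' sorting protocol has the same wording for both groups and names DNR mice in each. There was 1 Affymetrix array per genotype, and the labels give neither the promoter that drives the transgene nor the sex or number of the mice behind each RNA. With 1 array per genotype no test can be made, so every difference is between these 2 RNA samples and has no replicate check. The members were proposed with their values on these arrays known, and those values are a description.

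Proteins of the family share a TSC box followed by a leucine zipper, through which they pair with themselves and with each other. Tsc22d1 was found as a transcript that TGF-beta stimulates. Tsc22d3 encodes GILZ, the glucocorticoid-induced leucine zipper protein, which binds NF-kappaB and AP-1 and is also induced by FOXO transcription factors. In T cells GILZ is known to favour the TGF-beta-driven induction of Foxp3. Tsc22d2, Tsc22d4 and the long form of Tsc22d1 bind the pseudokinase NRBP1 and WNK kinases, which regulate chloride transport and cell volume.

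The 4 genes lie on different chromosomes. On the mouse assembly GRCm38.p6 RefSeq places Tsc22d1 on chromosome 14 (76414961 to 76507765), Tsc22d2 on chromosome 3 (58414702 to 58466787), Tsc22d3 on chromosome X (140539528 to 140600522) and Tsc22d4 on chromosome 5 (137745969 to 137768453). RefSeq lists 20 transcripts for Tsc22d1 and 8 for Tsc22d3, against 4 for Tsc22d2 and 2 for Tsc22d4. The table of promoters used here holds windows before 5 starts of Tsc22d1 and 3 of Tsc22d3, and their 250 bases before the start were searched for motifs of pathways known to induce these genes. Tsc22d2 and Tsc22d4 were not searched. The motifs were the glucocorticoid response element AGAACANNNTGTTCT, its 6-base core AGAACA, the FOXO motif GTAAACA, the SMAD motifs GTCTAGAC and CAGACA and the cyclic AMP response element TGACGTCA, each on both strands. The core AGAACA lies within the full glucocorticoid element, and no other pair of these motifs contains one another. The windows that hold a match are shown, to place the motifs relative to a start. Capitals mark the matches, and each sequence runs 5′ to 3′ on the gene's strand.
Tsc22d1, plus strand, chr14:76488186-76488435: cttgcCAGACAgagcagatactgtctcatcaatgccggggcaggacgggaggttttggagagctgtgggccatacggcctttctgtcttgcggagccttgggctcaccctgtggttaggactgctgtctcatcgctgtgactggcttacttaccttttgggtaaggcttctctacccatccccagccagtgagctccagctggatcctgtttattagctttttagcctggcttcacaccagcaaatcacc
Tsc22d1, plus strand, chr14:76503976-76504225: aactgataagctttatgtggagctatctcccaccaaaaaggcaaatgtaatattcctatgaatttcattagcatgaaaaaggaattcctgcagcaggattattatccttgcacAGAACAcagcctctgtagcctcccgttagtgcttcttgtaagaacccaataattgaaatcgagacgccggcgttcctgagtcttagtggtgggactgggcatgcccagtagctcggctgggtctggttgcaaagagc
Tsc22d3, minus strand, chrX:140600523-140600772: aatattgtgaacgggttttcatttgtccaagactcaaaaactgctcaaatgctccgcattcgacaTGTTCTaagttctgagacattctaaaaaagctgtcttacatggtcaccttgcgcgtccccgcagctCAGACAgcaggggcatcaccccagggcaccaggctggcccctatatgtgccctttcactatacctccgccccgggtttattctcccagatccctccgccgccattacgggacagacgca
The Tsc22d1 windows hold CAGACA and AGAACA respectively. The Tsc22d3 window lies before the outermost start of the gene and holds the core of the glucocorticoid element, read on the other strand as TGTTCT, and CAGACA. Of the 8 windows 2 hold the core AGAACA, against 16.1% of 32851 windows of all genes, and 2 hold CAGACA, against 17.1%. The full glucocorticoid element, found in 0.00913% of all windows, the FOXO motif (3.17%), the SMAD palindrome (0.167%) and the cyclic AMP element (1.55%) have no match in the 8 windows. The annotation does not tie the probe sets to these start sites.

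Values are MAS5 signals on a linear scale. Without the highest and lowest 2% of values the mean was 500.0 on each array, so the deposited values share a scale, though the labels do not describe the scaling. A signal under 110.9, the higher of the arrays' medians, was set to that floor before log2 was taken, and a gene was called measured if its brightest probe set exceeded the floor on at least 1 array. Log2 ratios are DNR over WT, so negative values mean a lower DNR signal. Where only 1 array was above the floor the ratio is a lower bound, written as "at least". Signals of different probe sets cannot be ranked as amounts of RNA, so each member is compared with itself. All 8 Treg markers examined were above the floor on both arrays, Foxp3 at 4550 in DNR and 3754 in WT Tregs. Disagreement between probe sets of a gene is the only error that can be estimated, with a robust SD of 0.36 in log2 ratio over 3968 genes. Variation between mice, between sorts and between arrays is not part of it.

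By their brightest probe sets all 4 members had a lower signal in DNR Tregs. The log2 ratio was -1.74 for Tsc22d1, -0.91 for Tsc22d3, -0.61 for Tsc22d2 and -0.46 for Tsc22d4, with a median of -0.76 against 0.014 over all 11927 measured genes. Only Tsc22d1 was lower by at least 2-fold, as were 2.93% of measured genes, and 4% were higher by at least 2-fold. Over the 11927 measured genes 48.6% had a lower and 51.4% a higher signal by any amount, so a lower signal in itself is common on these arrays. By its brightest probe set, 38 measured genes had a lower log2 ratio than Tsc22d1. That place rests on 1 probe set of a type (_x_at) that can bind transcripts of other genes. Of named probe sets, 0.058% had a lower log2 ratio than 1425742_a_at, another Tsc22d1 probe set, which is not of that type. The shares were 5.35% for the Tsc22d1 probe set 1454758_a_at and 26.6% for 1435952_at. The log2 ratio of Tsc22d1 was under 2-fold in 3 of the 9 settings tried, at -0.84, -0.58 and -0.27. For Tsc22d3, 457 genes had a lower log2 ratio. For Tsc22d2 the number was 1074 and for Tsc22d4 it was 1706, so the ratios of both were of a size that many genes reached. A lower signal of a bulk sample can mean fewer cells of a type or less RNA per cell, which cannot be told apart here.

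**Figure D1:**
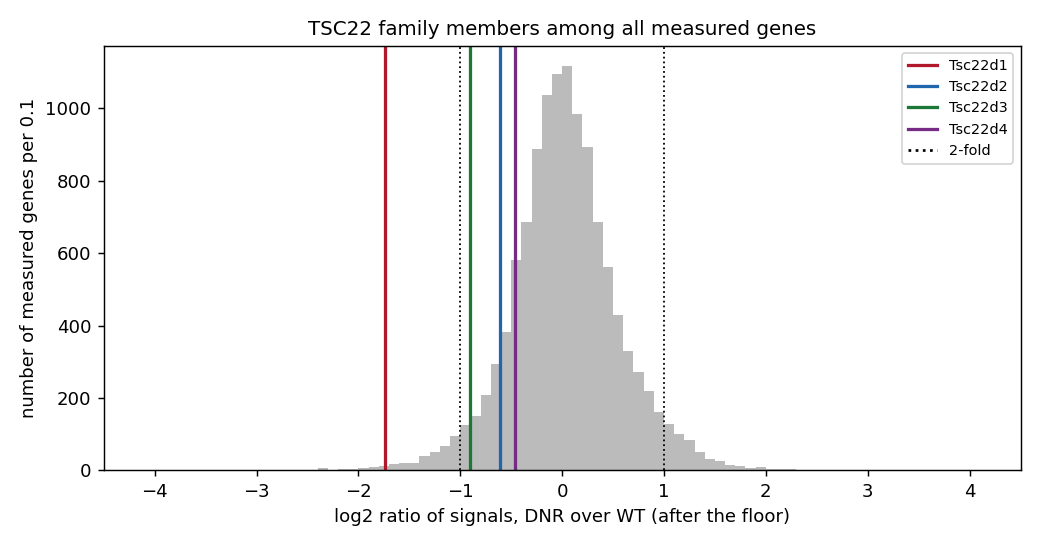
Number of measured genes (vertical axis) in each 0.1-wide step of the log2 ratio of DNR over WT signal (horizontal axis), with coloured lines at the 4 TSC22 family genes and dotted lines at 2-fold. All 4 lines lie left of zero, Tsc22d1 at -1.74 in the sparse tail, Tsc22d3 at -0.91 just inside 2-fold, and Tsc22d2 and Tsc22d4 on the shoulder of the distribution.

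Tsc22d1, the TGF-beta-stimulated member, was the furthest from zero and also the least uniform. Its brightest probe set, 1454971_x_at, read 538 in DNR Tregs against 1801 in WT Tregs, 3.35-fold lower. The probe set 1425742_a_at went further, with 168 against 858, 5.10-fold lower. The probe set 1454758_a_at had 489 against 878, 1.79-fold lower. On these 3 probe sets the DNR signal was clearly below the WT signal. The probe set 1435952_at had 351 against 421, a log2 ratio of -0.27, which is within the robust SD of a single probe set.

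The dimmest probe sets of Tsc22d1 add little. Near the floor, 1433899_x_at had 110.5 against 138, at least 1.24-fold lower. The probe set 1456132_x_at went the other way, with 193 in DNR against 100.3 in WT Tregs, at least 1.74-fold higher. The probe set 1439111_at was below the floor on both arrays (30.1 against 6.34) and gives no direction. Of the 6 probe sets above the floor on at least 1 array, 5 were thus lower and 1 higher in DNR Tregs. The 4 probe sets above it on both arrays spanned 2.09 in log2 ratio. Among 594 genes with at least 4 such probe sets the median span was 0.87, and 11 genes had a wider one than Tsc22d1. The size of the difference depends on which probe set is read: the log2 ratio was -0.58 as the median over probe sets. It was -0.84 without probe sets of the types _s_at and _x_at, whose probes can bind transcripts of other genes. Leaving out also the type _a_at, whose probes bind several transcripts of the same gene, gave -0.27. Whether the probe sets differ because they read different Tsc22d1 transcripts was not tested.

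**Figure D2:**
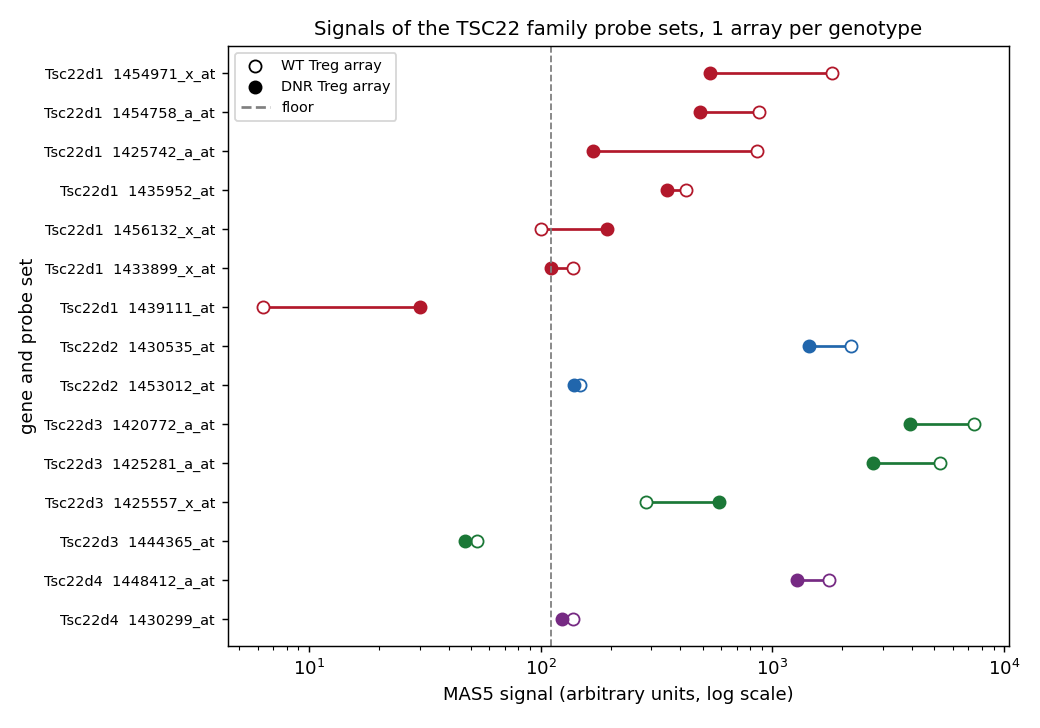
MAS5 signal (horizontal axis, log scale) of each of the 15 TSC22 family probe sets (vertical axis, grouped by gene and ordered by mean signal) on the WT array (open circles) and the DNR array (filled circles), with the floor of 110.9 as a dashed line. The filled circle lies left of the open one for the brightest probe set of each gene, and right of it for 1456132_x_at and 1425557_x_at, and for 1439111_at below the floor.

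Tsc22d3, the gene of GILZ, had a lower signal in DNR Tregs on its bright probe sets, by a little less than 2-fold. The probe set 1420772_a_at read 3932 in DNR Tregs against 7381 in WT Tregs, 1.88-fold lower. The probe set 1425281_a_at had 2703 against 5296, 1.96-fold lower. Their log2 ratios differed by 0.062, less than the robust SD of a single probe set. A dimmer probe set, 1425557_x_at, went the other way, with 589 in DNR against 284 in WT Tregs, 2.08-fold higher. The probe set 1444365_at was below the floor on both arrays (47.1 against 53.3). Both bright probe sets are of the type _a_at, so their signals can sum several Tsc22d3 transcripts.

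The 2 family probe sets above the floor on at least 1 array with a higher DNR signal, 1425557_x_at of Tsc22d3 and 1456132_x_at of Tsc22d1, are both of the type _x_at. Over the whole array 63.6% of 1138 named _x_at probe sets that exceeded the floor on both arrays were higher in DNR Tregs, against 46.2% of the 14602 others. The part of this in the 2 values was not tested. The brightest Tsc22d1 probe set, with the lower DNR signal of 538, is of the same type.

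Tsc22d2 and Tsc22d4 were each read by 1 bright and 1 dim probe set, and all 4 had a lower signal in DNR Tregs. For Tsc22d2 the bright probe set 1430535_at had 1433 against 2189.8, 1.53-fold lower, and 1453012_at had 139 against 147. For Tsc22d4, the family member that can pair with Tsc22d1, the bright probe set 1448412_a_at had 1278 against 1761.5, 1.38-fold lower, and 1430299_at had 123 against 138. The dim probe sets were near the floor, and their log2 ratios of -0.083 and -0.17 were within the robust SD. Neither gene came near 2-fold on any probe set.

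Over the family, 13 of 15 probe sets were above the floor on at least 1 array, of which 11 were lower and 2 higher in DNR Tregs. In the same class of probe sets over the whole array, 48.5% were lower and 51.5% higher. At least 2-fold lower were 2 of the 13, both of Tsc22d1 (3.30% over the array), and at least 2-fold higher was 1, of Tsc22d3 (3.93%). Probe sets of a gene share its transcripts and are not independent.

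Under the 8 other settings tried, each member with a value stayed lower in DNR Tregs. Tsc22d1 was lower by at least 2-fold in 6 of the 9 settings, and Tsc22d2, Tsc22d3 and Tsc22d4 in 0. Those 6 settings all read the same Tsc22d1 probe set, 1454971_x_at, so they are not separate support. Each setting that drew on its other probe sets gave less than 2-fold. None of the settings took its value from 1425742_a_at alone, which was 5.10-fold lower. The log2 ratio of Tsc22d3 moved least, between -0.91 and -0.87 over the 8 settings that gave it a value. By construction each of these took the value of the probe set 1420772_a_at, which is also the median one. The narrow range therefore says nothing about agreement between its probe sets, of which 1425557_x_at was at 1.05. Without _a_at probe sets no Tsc22d3 probe set above the floor was left. Tsc22d2 ranged from -0.61 to -0.35 and Tsc22d4 from -0.46 to -0.17.

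**Figure D3:**
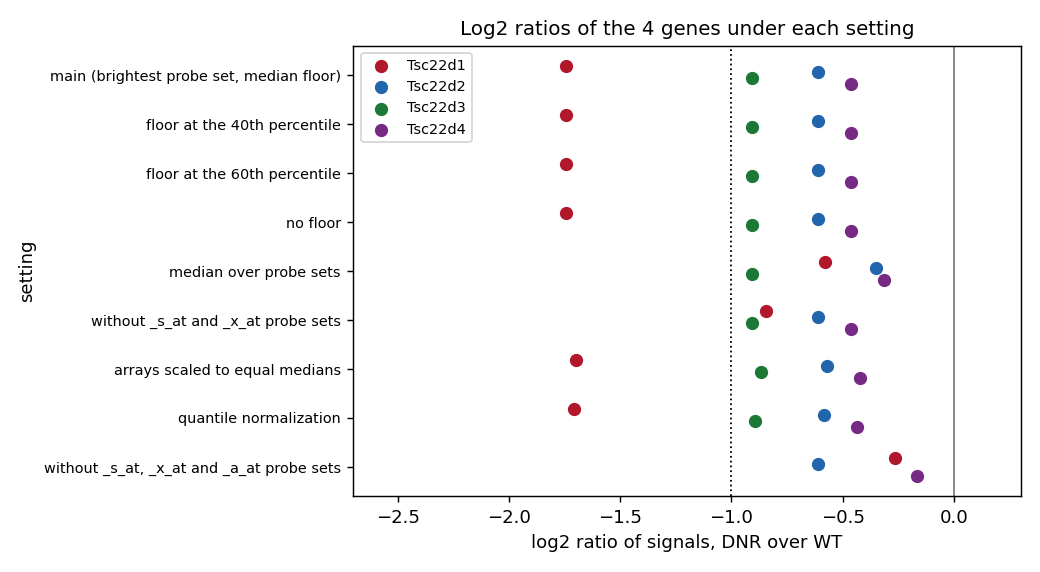
Log2 ratio of DNR over WT signal (horizontal axis) of the 4 genes under the main setting and 8 others (vertical axis), with a dotted line at 2-fold lower. Every point lies left of zero. Tsc22d1 moves from -1.74 to between -0.84 and -0.27 when the median over its probe sets is taken or its brightest one is left out.

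Genes known to be induced by TGF-beta, as Tsc22d1 is, were mostly lower in DNR Tregs. Of 21 measured genes on this list 16 were lower and 5 higher, with 7 at least 2-fold lower, 0 at least 2-fold higher and a median log2 ratio of -0.56. Over all measured genes 48.6% were lower and 2.93% at least 2-fold lower. The list was chosen with earlier results of these data known. On this list 3 genes had a lower log2 ratio than Tsc22d1. These were Sox4, a transcription factor gene (211 in DNR against 2092 in WT Tregs), Smurf1, a ubiquitin ligase of SMADs (135 against 622), and Skil, a feedback repressor of SMADs (4261 against 14390). The next lowest were Rgs16, a regulator of G protein signalling, at -1.64 and Ldlrad4, an inhibitor of SMAD activation, at least 3.11-fold lower. The inhibitory SMAD gene Smad7 was at -1.58. Other inhibitors of the pathway on the list, chosen after their values were seen, were closer to zero by their brightest probe sets. Ski was at -0.69, Pmepa1 at -0.63 and Smurf2 at -0.55. Their other probe sets above the floor were at -0.88 for Ski, 0.077 for Pmepa1, and 0.23 and -0.27 for Smurf2. Of the 5 higher genes, named after their values were seen, Id2 was at 0.80, Gadd45b at 0.58 and Bhlhe40 at 0.57. The brightest probe set of Tsc22d1 was at -1.74, and its other probe sets above the floor ranged from -2.35 to 0.80.

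Glucocorticoid-induced genes, the class that gave GILZ its name, did not, as a list, share the lower signal of Tsc22d3. Of 23 measured genes 10 were lower and 13 higher, with a median of 0.04. Nr3c1, the glucocorticoid receptor gene, had 2072 in DNR and 1757 in WT Tregs, a log2 ratio of 0.24, and its other probe sets lay between -0.22 and 0.20. Fkbp5, a receptor co-chaperone and sensitive glucocorticoid target, had 1526 against 1268. The metal-binding metallothionein genes Mt1 (1704 against 431) and Mt2 (517 against 188) were higher by at least 2-fold. Bcl2l11, which encodes the death-promoting protein BIM, had 633 against 1508, and Cxcr4, a chemokine receptor gene, 4051 against 8128. These last 2 were lower by at least 2-fold, Cxcr4 by a narrow margin (2.01-fold). Of the receptor and its co-chaperones 7 of 13 measured genes were higher and 6 lower, with a median of 0.21 and 0 genes at 2-fold either way. The brightest of them were the chaperone genes Hspa8 (0.38) and Hsp90aa1 (0.50).

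FOXO target genes, the other class to which Tsc22d3 belongs, were mostly lower. Of 28 measured genes 21 were lower and 7 higher, with 4 at least 2-fold lower, 0 at least 2-fold higher and a median of -0.37. Over all measured genes 48.6% were lower and 2.93% at least 2-fold lower. Ccr7, a receptor for homing to lymphoid tissue, had 4627 in DNR and 11433 in WT Tregs. Klf2, a transcription factor gene of quiescent T cells, had 7930 against 18152. Fbxo32, a ubiquitin ligase gene, had 225 against 538, and Bcl2l11 is on this list as well. On this list 5 genes had a lower log2 ratio than Tsc22d3, and these 4 of them were at -1.31 to -1.19. Il7r, the interleukin-7 receptor gene, was near equal by its brightest probe set (7985 against 7279), while its other probe set was at 1.54. The 2 lists share 5 genes. Without those, 18 of 23 FOXO targets were lower, with a median of -0.31, and 7 of 18 glucocorticoid-induced genes were lower, with a median of 0.13. Both lists were chosen with earlier results of these data known. Whether FOXO proteins or glucocorticoids had a part in the lower Tsc22d3 signal was not tested.

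Of the FOXO genes, Foxo1 had a lower DNR signal on each probe set above the floor. It had 4167 in DNR and 6242 in WT Tregs, a log2 ratio of -0.58, with its other probe sets at -0.35 and -0.64. Foxo3 had 2265 against 2876, with another probe set at -0.038, and Foxo4, chosen after its values were seen, had 339 against 319, with another at 0.82. Over the list of FOXO genes and the PI3K-AKT pathway, which restrains FOXO proteins, 10 of 17 measured genes were lower and 7 higher. Its median was -0.16, and 0 were at 2-fold. The brightest were Pik3cd, a PI3K catalytic subunit gene, at 0.51 and Rheb, an activator of mTOR, at 0.019. Phosphorylation of FOXO proteins was not measured.

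**Figure D4:**
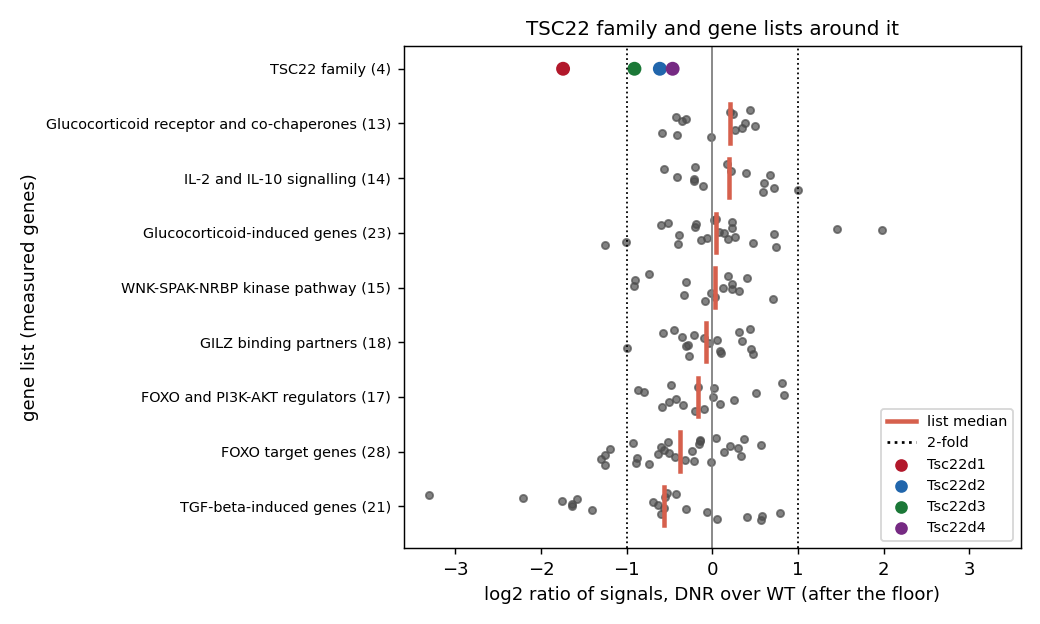
Log2 ratio of DNR over WT signal (horizontal axis) of the measured genes (points) of 8 gene lists around the TSC22 family (vertical axis, number of measured genes in brackets), with list medians as red bars and the 4 family genes in the top row. The lists with the lowest medians are the TGF-beta-induced genes (-0.56) and FOXO targets (-0.37), while glucocorticoid-induced genes lie around zero (0.04).

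Binding partners of GILZ showed no shared direction. Of 18 measured genes 10 were lower and 8 higher, with a median of -0.069 and 0 at 2-fold. Rela, an NF-kappaB subunit gene, had 4956 in DNR and 6356 in WT Tregs. The brightest were the AP-1 genes Fos (54911 against 51176) and Jund (15214 against 18474). Jun, chosen after its values were seen, was just short of 2-fold lower (6394 against 12780), and its other probe set was at -1.12. Smad2, the SMAD that GILZ binds, had 1047 against 1564 and Smad3 2990 against 2399, the latter within the robust SD of a single probe set.

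The list around the WNK and NRBP proteins that bind Tsc22d2, Tsc22d4 and the long Tsc22d1 protein, which also holds their cofactors and the chloride transporters they control, showed no shared direction. On it 7 of 15 measured genes were lower and 8 higher, with a median of 0.034 and 0 at 2-fold. Wnk1, the chloride-sensing kinase gene, had 13272 in DNR and 11714 in WT Tregs. The genes of the kinases it activates were also slightly higher, Stk39 (SPAK) at 1089 against 824 and Oxsr1 at 911 against 737. Nrbp1, the pseudokinase gene, had 628 against 792. Its relative Nrbp2 (189 against 191) and Wnk2 (43.7, under the floor, against 185, at least 1.67-fold lower) were chosen after their values were seen. Of the 4 measured WNK and NRBP genes 3 thus had a lower and 1 a higher signal. Cul3, a ubiquitin ligase scaffold that controls WNK levels, was at 0.034. Each of these log2 ratios but those of Stk39 (0.40) and Wnk2 was within the robust SD of a single probe set.

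Cytokines known to act on Tsc22d3 differed as well. Interleukin-2, which lowers GILZ in T cells, was near the floor: Il2 had 168 in DNR Tregs against 92.1, which is under the floor, in WT Tregs. Il10, the gene of an anti-inflammatory cytokine that raises GILZ in myeloid cells, had 4468 against 2238, just short of 2-fold higher. On the list of interleukin-2 and interleukin-10 signalling 6 of 14 measured genes were lower and 8 higher, with a median of 0.19. Its brightest genes were Socs3, a feedback inhibitor of cytokine signalling, at 0.39 and Jak1, a receptor kinase, at -0.41. The other probe sets of Socs3 went the other way, at -0.089 and -0.33, and those of Jak1 were at -0.21 and -0.24.

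Macrophages and B cells can also express Tsc22d3, and most of their markers with a probe set were above the floor on at least 1 array. Over all measured genes 48.6% were lower and 51.4% higher in DNR Tregs by any amount. Of 8 macrophage and monocyte markers 7 were measured and all 7 were lower in DNR Tregs. C1qa had 330 against 788, while C1qb (-0.023), Adgre1 (-0.12) and Csf1r (-0.31) were within the robust SD of a single probe set. The summed signal of the 8 was 3446 against 4861, of which Csf1r, the brightest, gave 1449 and 1799. Of 5 B cell markers 3 were measured, 2 lower and 1 higher, with a summed signal of 1094 against 993, and Cd79a and Pax5 were below the floor on both arrays. Of 8 neutrophil markers 4 were measured, 3 higher and 1 lower, summed at 1426 against 689. The 3 were higher by at least 2-fold, as were 4% of all measured genes. They were Mmp9 by 2.93-fold, Ngp by at least 2.59-fold and S100a8 by at least 2.57-fold. Elane was lower, at -0.46, and S100a9, Csf3r, Camp and Ltf were below the floor on both arrays. Of 5 CD8 T and NK cell markers 4 were measured, 3 higher and 1 lower, with a summed signal of 825 against 657. Of 5 dendritic cell markers 2 were measured, both higher near the floor (384 against 245 summed), and of 4 erythroid markers 2, with Hba-a1 and Alas2 below the floor on both arrays (181 against 172 summed). The 7 measured T cell markers were summed at 104075 against 96535, with 4 higher and 3 lower, and the 8 Treg markers at 112029 against 91981, with 5 higher and 3 lower, Izumo1r at -1.02. The part of other cells in the members' signals was not tested.

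The genes whose signals on the 2 arrays were most like those of a member were found by the distance between pairs of log2 signals. For Tsc22d3 they were Itga6, an integrin chain gene, at a distance of 0.13, Cxcr4 at 0.15 and Trib2, a pseudokinase gene, at 0.19. For Tsc22d1 the nearest were further away: Bcl2l11 at 0.35, Thumpd1 at 0.41 and Igfbp4, an insulin-like growth factor binding protein gene, at 0.45. Tsc22d2 was nearest to Frmd6, Zfp275 and Hsd17b10 (0.0073 to 0.024), and Tsc22d4 to Osbp, Cacul1 and Herc2 (0.015 to 0.021). Within 0.25 there were 105 genes for Tsc22d2 and 218 for Tsc22d4, 10 for Tsc22d3 and 0 for Tsc22d1. With 2 arrays such likeness describes the values and nothing more.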

How the data were processed

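Total RNA of 2 samples was labelled with biotin and hybridised to Affymetrix mouse arrays, per the labels' protocols. The deposited table gives a signal intensity for every probe set, linear in scale, for which the submitters' processing notes name MAS5. How the authors scaled it, and their detection calls, are not described in the labels. Of 45101 probe sets 64 controls were left out. The platform annotation gave exactly 1 gene to 34945 of the rest, several to 932 and none to 9160, and unnamed probe sets were not used for genes. Current symbols were looked up by Entrez identifier for 34741, and 0 changed. Scaling multiplies background with signal, which can raise dim values of an array.

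A gene's value is that of its brightest probe set by the mean of both arrays. The floor was the higher of the arrays' medians (110.9 for DNR, 91.0 for WT), and differences are described against a threshold of 2-fold. No test was made, and precision is limited by there being 1 array per genotype. The procedure was checked on simulated data, with changes planted only in bright genes and larger than those of the members' brightest probe sets. That check says nothing about differences of the members' size. Alternatives were other floors, the median over probe sets, leaving out probe set types, other scalings and other thresholds. Python 3.11.15, pandas 2.3.3 and numpy 2.4.6 were used. Promoter sequences and gene positions are from RefSeq (GRCm38.p6), and the table used held 5 windows for Tsc22d1 and 3 for Tsc22d3.

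The members and lists were chosen with earlier results of these data known. The 8 pathway lists hold 170 genes, of which 18 had no probe set of their own. Named are all members, up to 5 genes per list with the largest differences of at least 2-fold (the 2 brightest where fewer than 2 reached it), 18 regulators or partners of the family whatever their value, of which 1 is not reported here, and the 3 genes nearest to each member.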

Additional observations from a re-analysis of the deposited data

How the results depend on the processing

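No paired analysis was possible because there was 1 array per genotype and no test. A value was counted as moved if it changed by more than 0.36, the robust SD of a single probe set. Only the log2 ratio of Tsc22d1 moved among the members: it was -0.58 with the median over probe sets, -0.84 without _s_at and _x_at probe sets and -0.27 without _a_at as well, an alternative chosen after seeing the data. By construction these read other probe sets of the gene. It ranged from -1.74 to -1.70 under the other floors and scalings. Under the 7 alternatives run for them, each list median stayed within 0.36 of its main value, and the median of the 8 list medians, -0.018, lay between -0.093 and 0.024. That limit is wide for list medians, most of which were themselves smaller in size. With the median over probe sets the glucocorticoid-induced list went from 0.04 to -0.13, and the receptor and co-chaperone list from 0.21 to 0.02. The TGF-beta-induced list stayed between -0.58 and -0.52. The counts of measured genes at least 2-fold higher and lower, 477 and 350, depended on the floor. A floor at the 40th percentile gave 1026 and 550, one at the 60th gave 250 and 246, and leaving it out gave 3617 and 2655. At 1.5-fold they were 1526 and 1175, and at 3-fold 56 and 63. The other scalings shifted the median log2 ratio of measured genes to between -0.004 and 0.05, from 0.014.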

Other observations

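The excess of higher DNR signals among _x_at probe sets was present at each level of signal. With named probe sets that exceeded the floor on both arrays split into 4 equal parts by mean signal, 60.2% of 216 _x_at probe sets were higher in DNR Tregs in the dimmest part, against 52.2% of 3719 others. In the brightest part the shares were 66.2% of 465 and 42.9% of 3470. In the parts between they were 66.1% of 248 against 45.5% of 3687 and 58.4% of 209 against 44.1% of 3726. This split was chosen after the values had been seen, and its cause was not tested.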
